A study of Homo sapiens with 2 samples.

Results

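The insulin-like growth factor (IGF) axis was followed in ALDH+ and ALDH- cells of the ovarian clear cell line RMG1. Its 10 members were IGF2, the receptors IGF1R and IGF2R, and the binding proteins IGFBP1 to IGFBP7, out of 27267 genes with a probe. The list was selected on earlier results from this comparison, the ratios of ALDH+ to ALDH- cells, and the probes were then found by gene name. Ratios within it are therefore a description and carry no test.

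RMG1 was grown with fetal bovine serum and stained with ALDEFLUOR, a fluorescent substrate of aldehyde dehydrogenase. ALDEFLUOR high cells (ALDH+) and ALDEFLUOR low cells (ALDH-) were sorted by flow cytometry to compare a stem-like fraction with the remaining cells. Both came from the same cell line with no further treatment named in the labels, with 1 RNA extract per population. The same extracts were hybridized to 2 arrays of 1 slide, with ALDH+ RNA in Cy5 on array 1 and in Cy3 on array 2. The arrays count as 1 replicate, so each SD below is the technical spread of 2 arrays, and no p-value is given. The sample labels name RMG1, whereas the methods name the serous line AMOC2 as the source of the RNA. RMG1 is used here after the labels, and the markers that follow were not used to tell the lines apart. All 6 epithelial markers and all 3 clear cell markers (NAPSA and PAX8 among them) were well above background, while 0 of 7 fibroblast markers were. The exceptions among other cell types were CDH5 of 5 endothelial markers and PTPRC, CD14 and CD79A of 6 leukocyte markers, and their part in the results was not tested.

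IGF ligands bind IGF1R, a receptor tyrosine kinase that signals to growth and survival through insulin receptor substrates, PI3 kinase, AKT and mTOR. IGF2R, the cation-independent mannose 6-phosphate receptor, removes IGF2 from the cell surface and carries lysosomal enzymes. The high-affinity binding proteins hold the ligands outside the cell and can withhold or deliver them, and IGFBP7 is a relative with weak affinity for IGFs. Cultured cells also meet ligand from serum, which these arrays do not see.

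Each gene was read by 60-base probes. Of the 11 probes for the members, no pair from different genes shared a run of more than 8 bases, and none was saturated. The first 30 bases of the probe are given for the 6 members that were measured, since they show which piece of each transcript the values stand for. Positions are on hg19, sequences are written 5′ to 3′ as the files give the probe, and no bases are singled out by capitals. IGFBP1 and IGFBP3 lie next to each other among the protein-coding genes of chromosome 7, on opposite strands.
IGFBP1 (chr7:45932966-45932995, plus strand): tttctgctcttccaaagctcctgcgtctgt
IGFBP3 (chr7:45952638-45952667, minus strand): agcctccacattcagaggcatcacaagtaa
IGFBP6 (chr12:53494853-53494882, plus strand): tgctgcagcaactccagactgaggtctacc
IGFBP7 (chr4:57897453-57897482, minus strand): acctccagaatattattagtctgcatggtt
IGF1R (chr15:99507366-99507395, plus strand): aaatcaaaccagaaggcgggatggaatgga
IGF2R (chr6:160527114-160527143, plus strand): gccttaatttgcacagtgtgtgacttacag

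IGFBP1 RNA was 2.84-fold lower in ALDH+ cells, and it was the only member past 2-fold. After loess, both receptors and IGFBP3 lay below 0 by less than 2-fold on both arrays. With median centring IGFBP3 and IGF1R were above 0 on array 1, where the median over all genes counted as measured was 0.56. A gene counted as measured when its probe was well above background in at least 1 population on both arrays, which held for 6 of the 10 members and for 13720 genes. Of the 6, 1 was past 2-fold lower and 0 were past 2-fold higher, where 0.707% of all measured genes were past 2-fold lower and 0.211% past 2-fold higher. Because the members were chosen with these ratios in view, nothing is read from that contrast. The log2 ratio of ALDH+ over ALDH- was below 0 for 5 of the 6 and above 0 for IGFBP6, while 50.5% of all measured genes were below 0. Their median was -0.47, beside -0.0030 over all measured genes, whose middle part by quartiles ran from -0.19 to 0.15.

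**Figure D1:**
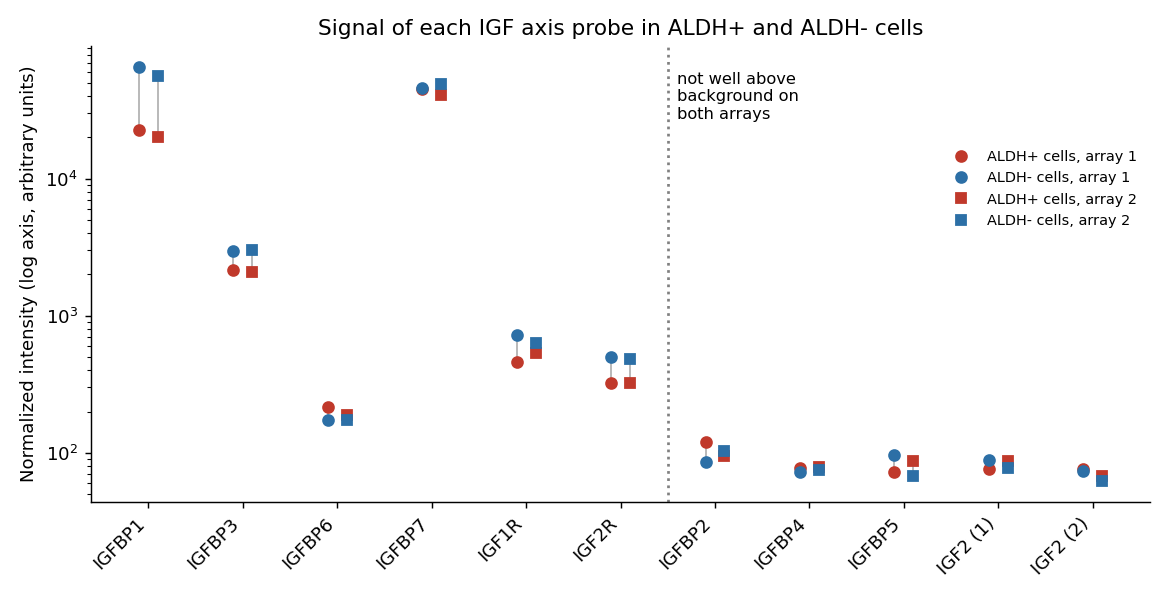
Normalized intensity (log axis, arbitrary units) of the 11 member probes in ALDH+ cells (red) and ALDH- cells (blue) on array 1 (circles) and array 2 (squares), with a grey line joining the populations of an array. Blue points lie well above red ones for IGFBP1 on both arrays, and probes right of the dotted line did not clear background on both arrays for any 1 population.

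IGFBP1 is a secreted, insulin-regulated binding protein made chiefly by liver and by decidualized endometrium. Its normalized intensity was 22613.9 in ALDH+ and 65411.6 in ALDH- cells on array 1, and 20121.3 in ALDH+ and 56271.3 in ALDH- cells on array 2. Both ALDH+ values lay far below both ALDH- values, whichever dye the population carried. In such bulk RNA, fewer cells that express a gene and less RNA in each cell cannot be told apart. The log2 ratios were -1.53 and -1.48, with a mean of -1.51 ± 0.034 (SD of 2 arrays). The probe had the 8th lowest ratio of 13720 genes, so IGFBP1 stood near the end of the whole distribution. It was also a bright probe, and among the 456 genes with a mean log2 intensity of 14 or more, ND4L (a mitochondrial gene, singled out after its value was seen) was the 1 gene with a lower ratio, at -1.68.

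The size of the IGFBP1 difference depended on how dye brightness was corrected. Before normalization its mean signal on array 1 was 40664.6 in ALDH+ and 36993.9 in ALDH- cells, and on array 2 it was 15414.3 and 75236.7. When each array was only centred on its median, without correction along intensity, the log2 ratio was -0.097 on array 1 and -2.05 on array 2, with a mean of -1.07. Under that centring the median of all measured genes was 0.56 on array 1 and -0.44 on array 2, and the bright genes as a group had a median of 1.43 on array 1 and -0.61 on array 2. Relative to the median of the bright genes, IGFBP1 was at -1.49 with loess and -1.48 with median centring. Taking off that median removes much the same trend with brightness as loess does, so the closeness of these values is no separate check. IGFBP1 was past 2-fold lower in each of the settings run.

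IGFBP3, the main carrier of IGFs in serum and a neighbour of IGFBP1, was lower in ALDH+ cells by a smaller step. The normalized intensity of IGFBP3 was 2149.8 in ALDH+ and 2963.5 in ALDH- cells on array 1, and 2073.0 and 3005.4 on array 2. After loess both ALDH+ values lay below both ALDH- values, and the log2 ratio of -0.50 ± 0.051 (SD of 2 arrays) corresponded to 1.41-fold. The IGFBP3 probe was printed at 10 spots, and the loess-normalized ratio was below 0 at 10 of 10 spots on each array. These spots repeat the same probe with the same extracts and are not replicates of the populations. Before normalization the mean signal was higher in ALDH+ cells on array 1, at 3257.8 against 2100.6, and lower on array 2, at 1589.3 against 3896.0. Median centring gave log2 ratios of 0.45 on array 1 and -1.11 on array 2, with a mean of -0.33. The sign turned with the dyes, but so did the median of all measured genes, 0.56 on array 1 and -0.44 on array 2. IGFBP3 lay below that median on both arrays. The normalized spot ratios ran from -0.52 to -0.41 on array 1 and from -0.58 to -0.46 on array 2. TNS3, the next protein-coding gene after IGFBP3, had a log2 ratio of -0.15, with 0.034 on array 1 and -0.33 on array 2.

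IGFBP7, a secreted protein of the extracellular matrix, gave no settled direction. Its normalized intensity was 44667.9 in ALDH+ and 45775.9 in ALDH- cells on array 1, and 40827.8 and 48673.6 on array 2. The populations were nearly level on array 1 and lower in ALDH+ cells on array 2, with log2 ratios of -0.035 and -0.25 and a mean of -0.14 ± 0.15 (SD of 2 arrays). Median centring turned the sign, to 0.31, with 1.43 on array 1 and -0.82 on array 2. Under that centring the bright genes as a group had medians of 1.43 and -0.61. Relative to the median of the bright genes, IGFBP7 was at -0.13 with loess and -0.10 with median centring. IGFBP7 and IGFBP1 were both bright, and IGFBP1 was below 0 in each setting run.

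IGFBP6, which prefers IGF2 over IGF1, was the 1 measured member above 0. On array 1 the normalized intensity was 216.3 in ALDH+ and 173.1 in ALDH- cells, and on array 2 it was 189.6 and 174.1. Both ALDH+ values were the higher ones, by 1.17-fold, with log2 ratios of 0.32 and 0.12 and a mean of 0.22 ± 0.14 (SD of 2 arrays). By rank, 2097 measured genes had a higher ratio. IGFBP6 was the dimmest measured member. Its Cy3 mean signals were 216.4 on array 1 and 217.9 on array 2, where Cy3 negative control spots had medians of 135.2 and 127.2. The Cy5 signals were 245.5 and 181.1, against 45.1 and 43.1. With median centring the ratio was 0.60 on array 1 and -0.099 on array 2, beside medians of 0.56 and -0.44 over all measured genes.

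**Figure D2:**
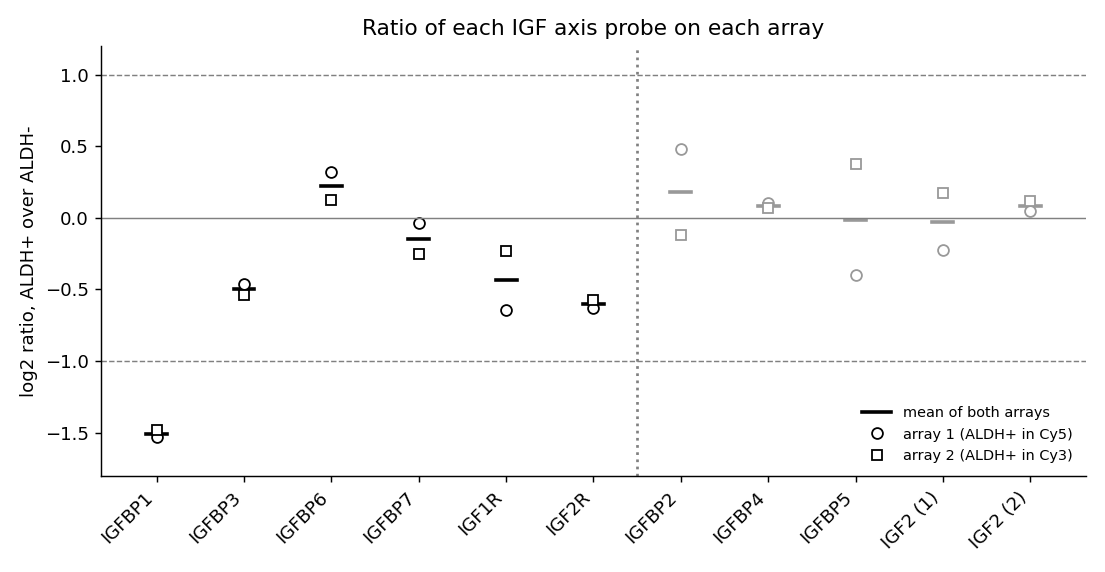
Log2 ratio of ALDH+ over ALDH- cells for each member probe on array 1 (circle, ALDH+ in Cy5) and array 2 (square, ALDH+ in Cy3), with the mean as a bar, dashed lines at 2-fold and unmeasured probes in grey right of the dotted line. IGFBP1 lies at -1.53 and -1.48, beyond the lower dashed line on both arrays, and the arrays of IGF1R are farther apart than those of IGF2R.

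Among the receptors, IGF2R had the tighter values. ALDH+ cells had a normalized intensity of 322.6 on array 1 and 321.3 on array 2, against 500.2 and 479.2 in ALDH- cells. Both ALDH+ values lay below both ALDH- values, and IGF2R was 1.52-fold lower in ALDH+ cells at a log2 ratio of -0.60 ± 0.040 (SD of 2 arrays). It had the 571st lowest ratio of the measured genes, and its value ran from -0.74 to -0.54 over the settings run. With median centring it was -0.057 on array 1 and -1.03 on array 2, beside medians of 0.56 and -0.44 over all measured genes.

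IGF1R, the signalling receptor, was lower in ALDH+ cells on both arrays but by unequal amounts. Its normalized intensity was 462.5 in ALDH+ and 721.9 in ALDH- cells on array 1, and 537.7 and 629.8 on array 2. The ALDH+ values lay below both ALDH- values, and the log2 ratios were -0.64 and -0.23. Their SD of 0.29 was close to the 90th percentile over all measured genes, 0.30, where the median SD was 0.11. The mean of -0.44 corresponded to 1.35-fold, and it had the 1237th lowest ratio. With median centring the ratio was 0.033 on array 1 and -0.74 on array 2, beside medians of 0.56 and -0.44 over all measured genes.

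**Figure D3:**
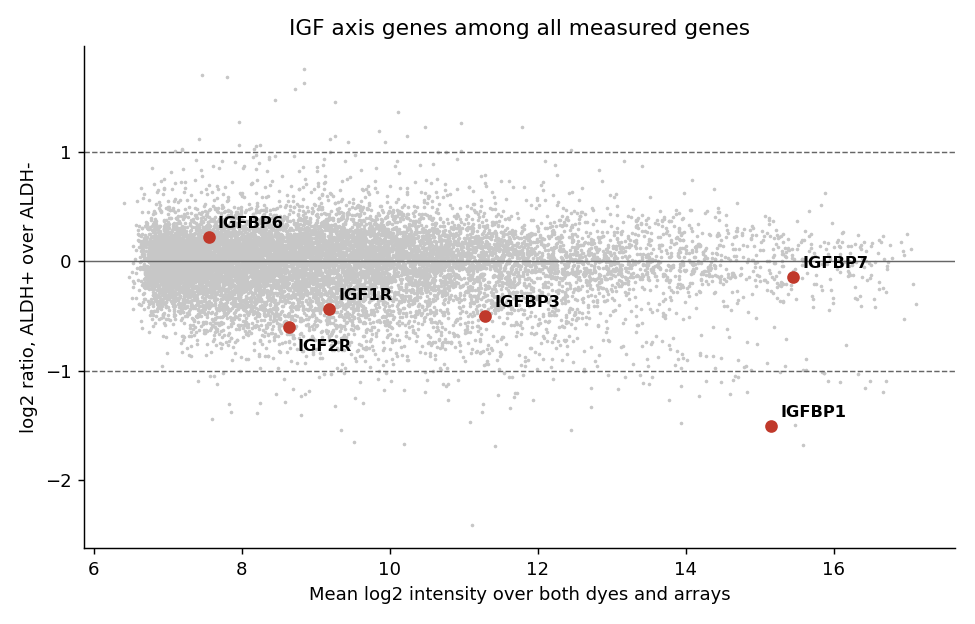
Log2 ratio of ALDH+ over ALDH- cells (mean of both arrays) against mean log2 intensity for the 13720 measured genes (grey), with the 6 measured members in red and dashed lines at 2-fold. IGFBP1 sits at the bright, low edge of the cloud at -1.51, while the other 5 lie between the dashed lines.

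The ligand IGF2, an imprinted growth factor, was at background in both populations. The first of its 2 probes gave mean signals of 56.0 in ALDH+ and 163.8 in ALDH- cells on array 1, and 149.1 and 53.2 on array 2. The higher value belonged each time to the Cy3 channel, whose negative control spots had medians of 135.2 and 127.2, against 45.1 and 43.1 in Cy5. The second probe followed the same order, at 54.2 and 146.8 on array 1 and 127.1 and 44.3 on array 2. No ratio is read from these values. The readthrough transcript INS-IGF2 was also not well above background, while both probes of the antisense gene IGF2AS, added after the values were seen, were, with log2 ratios of 0.016 and -0.052.

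The remaining binding proteins, IGFBP2, IGFBP4 and IGFBP5, were likewise not measured. IGFBP4, a binding protein cleaved by PAPPA, gave normalized intensities of 77.6 in ALDH+ and 72.2 in ALDH- cells on array 1, and 78.4 and 74.8 on array 2. IGFBP5, a binding protein held in the matrix, gave 72.7 and 96.1 on array 1 and 87.5 and 67.5 on array 2, so its order turned with the dyes. IGFBP2 and IGFBP5 are neighbours on chromosome 2, and neither was measured. IGFBP2 was printed at 10 spots and followed the dye: it was well above background in ALDH+ cells at 9 of 9 usable spots on array 1 and in ALDH- cells at 10 of 10 on array 2, the Cy5 channel each time. Its log2 ratio was 0.48 on array 1 and -0.12 on array 2, and no direction is given.

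**Figure D4:**
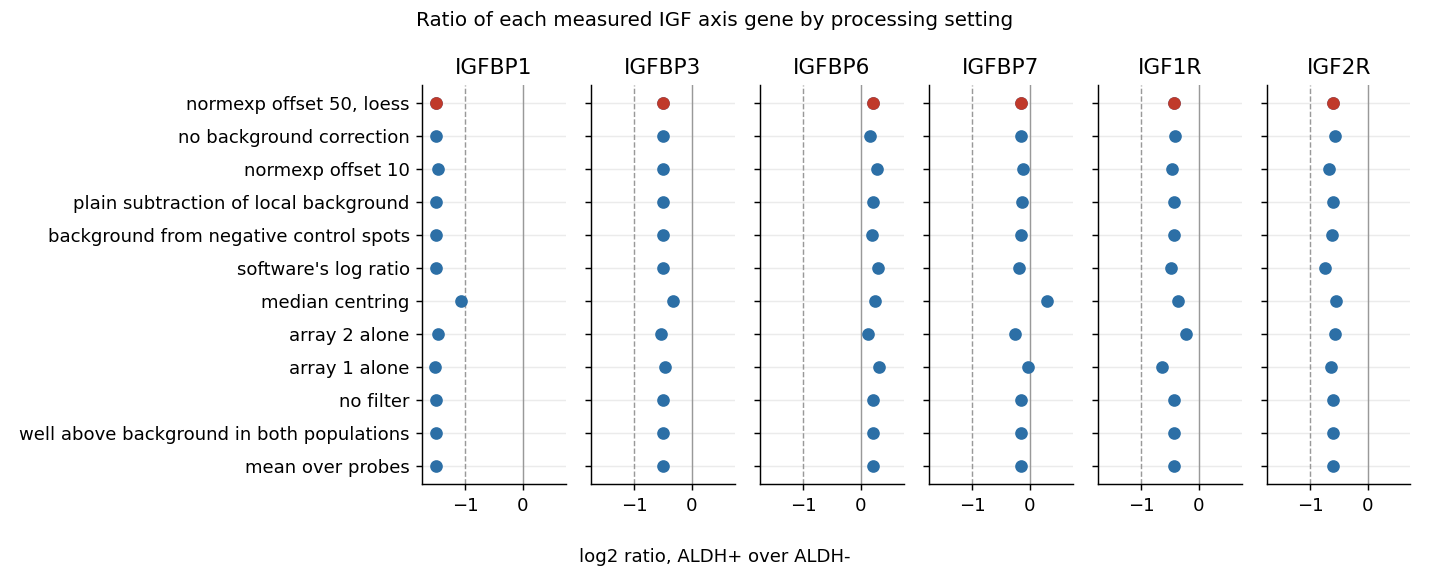
Log2 ratio of ALDH+ over ALDH- cells for the 6 measured members (panels) under each processing setting (lines), with the reported setting in red, a dashed line at 2-fold lower and a solid line at 0. The IGFBP1 points all lie left of the dashed line, and the IGFBP7 point crosses 0 under median centring.

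Of 62 other genes of the pathway, 40 were measured, 1 was past 2-fold lower (MTOR) and 0 were past 2-fold higher. Over all measured genes, 0.707% were past 2-fold lower and 0.211% past 2-fold higher. The log2 ratios of the 40 had a median of -0.084, with 17 above and 23 below 0, while 50.5% of all measured genes were below 0. MTOR encodes the kinase that couples IGF signalling to protein synthesis. Its normalized intensity was 963.0 in ALDH+ and 2069.4 in ALDH- cells on array 1, and 908.8 and 2218.9 on array 2. MTOR was thus 2.29-fold lower in ALDH+ cells, at a log2 ratio of -1.20 ± 0.13 (SD of 2 arrays). Both ALDH+ values lay below both ALDH- values, and MTOR had the 39th lowest ratio of all measured genes.

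In the kinase cascade, 18 of 20 genes were measured, with a median of -0.12. Of the 18, 13 had ratios below 0, or 11 with median centring, beside 50.5% of all measured genes after loess. EIF4EBP1, the translation repressor that mTOR phosphorylates, had a log2 ratio of -0.57, with -0.62 and -0.51 on the arrays. With median centring it was -0.27, with 0.53 on array 1 and -1.07 on array 2. PDPK1, which phosphorylates AKT, had -0.66 at its brighter probe, but its other probe was level at -0.0039. FOXO4, a transcription factor restrained by AKT, gave 0.69 and -0.11 and therefore no settled direction.

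Among adaptors, 7 of 9 were measured with a median of -0.10. GRB10, an adaptor that dampens IGF1R and insulin receptor signalling, had the lowest log2 ratio of them at -0.68, and its other probe gave -0.45. The RNA-binding protein IGF2BP1, which binds IGF2 messenger RNA, had -0.76, with -0.82 and -0.70 on the arrays. The related IGF2BP2 had -0.13 at its brighter probe and -0.48 at its other probe, and IGF2BP3 had 0.24.

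IGF1 and INS were not well above background, and INSR, the insulin receptor, was nearly level at -0.094. TMEM219, a receptor for IGFBP3, had 0.068 on array 1 and 0.49 on array 2. The 4 measured relatives of the binding proteins, of 12 listed, ran from 0.0012 (CCN1) to 0.87 after loess. With the software's own log ratio the lowest of the 4 was -0.0059. CCN3, a matricellular protein with an IGF-binding protein-like domain, was the highest of the 4 after loess at 0.87, with 0.78 and 0.97 on the arrays. Its normalized intensity was 364.7 in ALDH+ and 212.3 in ALDH- cells on array 1, and 342.4 and 175.2 on array 2. Proteases and processing enzymes were measured for 6 of 11 genes with a median of 0.049, and CTSD, the lysosomal protease cathepsin D that IGF2R transports, had 0.33, with 0.30 and 0.35 on the arrays. With median centring, CTSD, GRB10, PDPK1 and INSR were above 0 on array 1 and below 0 on array 2. So was the median of all measured genes, at 0.56 and -0.44. MTOR (-0.28 and -1.86), IGF2BP1 (-0.29 and -1.14) and CCN3 (1.23 and 0.63) each had the same sign on both arrays.

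**Figure D5:**
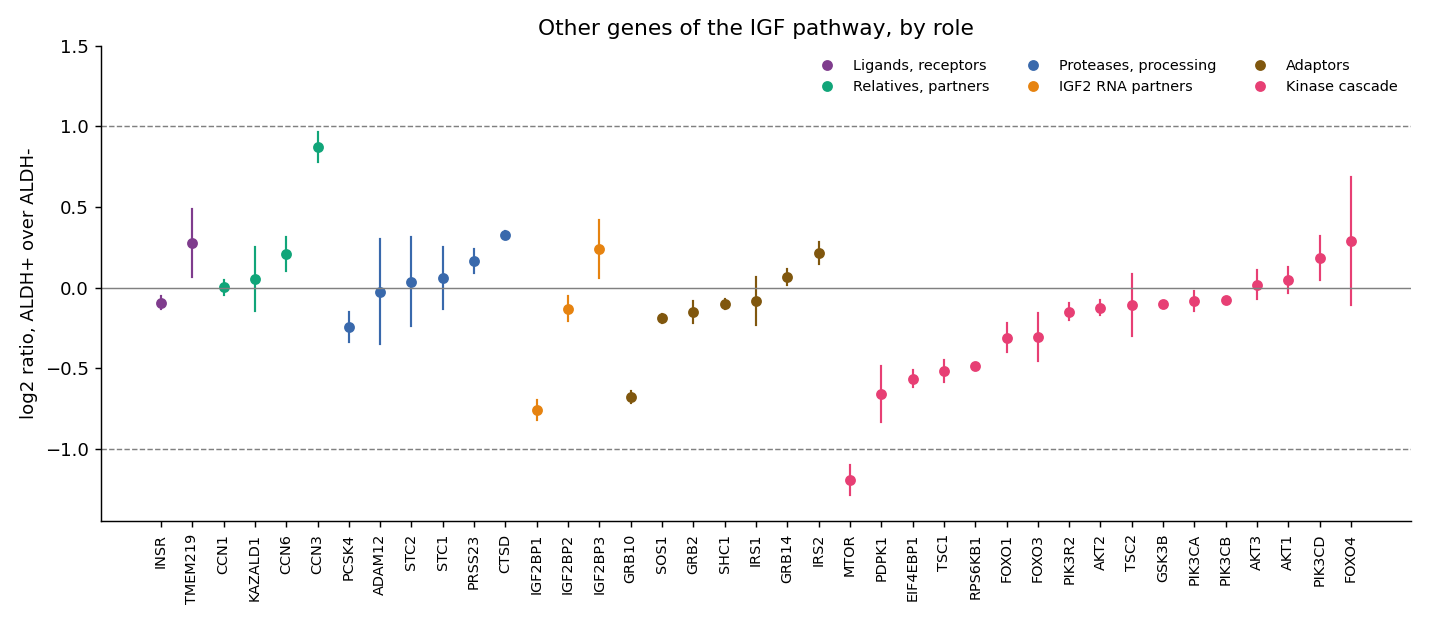
Log2 ratio of ALDH+ over ALDH- cells for 39 of the 40 measured pathway genes, colored by role, with the mean of both arrays as a point, a line joining array 1 and array 2, and dashed lines at 2-fold. MTOR, at -1.20, is the 1 gene beyond a dashed line, and CCN3, at 0.87, is the highest.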

How the data were processed

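For each array the authors deposited the intensity of every spot in both dyes with its local background, without normalization, as read by Agilent Feature Extraction (10.7.3.1 per the file headers, 8.5.1.1 per the labels). They also deposited the log10 ratio of that software, made after its own correction, which was turned to log2 and used as an alternative. A joined table that repeats those ratios and signals, and the software's p-values, were not used. Probe positions (hg19) came from the file headers.

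Mean signals were corrected with normexp (offset 50) and loess within each array in limma 3.58.1 (R 4.3.3). Outlier spots took part in these steps and were left out afterwards, before the spots of a probe were averaged. Normalized intensities also passed a step that gave both arrays the same distribution of mean log2 intensity (Aquantile in limma). It leaves the ratio of each array unchanged, but comparisons of normalized intensities across arrays rest on it. Of 34127 probes, 25422 were named by accession through RefSeq. A probe was kept when over 50% of its spots were, on both arrays, well above background in the same population, and the brightest kept probe stood for its gene. Tables and plots were made with pandas 2.3.3, numpy 2.4.6 and matplotlib 3.10.9 (Python 3.11.15). The code was tested on simulated data that held no trend of the dyes with brightness, so the correction of that trend was not tested.

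Text named all members and, of the pathway list, genes past 2-fold, the 5 highest, the 5 lowest, IGF1, INS and INSR, and, after their values were seen, IGF2BP2, IGF2BP3, CCN1, IGF2AS, INS-IGF2, TNS3 and ND4L. Members and lists were chosen with earlier results of these data known. Single values of 1 pathway gene and 1 marker that the counts include are not reported here. The number of arrays limits the precision. Alternatives changed the background correction, offset, normalization, filter, probe rule, array and threshold.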

Additional observations from a re-analysis of the deposited data

How the results depend on the processing

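No paired analysis was possible because both arrays carry the same RNA extracts and no result comes from a test. IGFBP1 was past 2-fold lower, and no member was past 2-fold higher, in all 12 alternatives. Of 66 member values under alternatives, 6 differed from the reported value by more than the technical SD. Under median centring these were IGFBP1 (-1.07), IGFBP3 (-0.33), IGF2R (-0.54) and IGFBP7 (0.31, the 1 change of sign of a mean), and IGF2R was -0.67 with a normexp offset of 10 and -0.74 with the software's log ratio. A value from 1 array alone cannot differ from the mean of both by more than that SD. The filter and probe rules left each member value unchanged. Those settings could not add to the 6, so the count is no measure of robustness. With 1 array alone, the log2 ratio ran from -1.53 to -1.48 for IGFBP1, -0.54 to -0.46 for IGFBP3, 0.12 to 0.32 for IGFBP6, -0.25 to -0.035 for IGFBP7, -0.64 to -0.23 for IGF1R and -0.63 to -0.58 for IGF2R. At 1.5-fold, 2 members were lower (IGFBP1 and IGF2R), as were 4 pathway genes, and 1 pathway gene was higher. With an offset of 10, 1 pathway gene was past 2-fold higher, and with the software's ratio 2 were. Over all genes, 29 were past 2-fold higher and 97 lower. These counts were 52 and 46 with median centring (53.1% of the calls higher, beside 23.0%), 137 and 276 with the software's ratio, and 206 and 632 at 1.5-fold, while 65 were higher with an offset of 10 and 19 with no background correction. With 1 array alone, 33 to 34 genes were higher and 92 to 144 lower. Alternatives were followed gene by gene for 11 of the 40 measured pathway genes, and of their 120 values 13 moved, EIF4EBP1 to -0.27 with median centring among them, and 1 changed sign (FOXO4, to -0.11 without array 1). By the SD rule values from 1 array alone could not count as moved, though they could change sign. Other pathway genes also changed sign, since 11 in place of 13 genes of the kinase cascade were below 0 with median centring. The cause of these changes was not tested. No direction is read for the members that were not measured, and the signal over background limits what can be said of them.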
